A study of Mus musculus with 4 samples.

Results

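The genes described here encode 10 proteins of the haematopoietic stem cell surface, or in 1 case of the cell's storage granules, by which mouse stem cells are recognised or sorted: Procr, Slamf1, Cd48, Ly6a, Cd34, Eng, Esam, Tek, Cd9 and Vwf. They were chosen by name, with earlier results of these data known, and are 10 of the 24411 genes in the deposited tables. Their transcripts were measured in 4 RNA libraries of 100 sorted cells each, 2 wild-type and 2 Dis3-/-. Dis3 encodes a ribonuclease of the RNA exosome. The mice were C57BL/6, and the donor marrow of both groups carried floxed Dis3: marrow of Dis3fl/fl animals without Cre (labelled wild type, WT below) or of Dis3fl/fl;Mx-Cre animals (Dis3-/-) was grafted into lethally irradiated CD45.1 recipients. From 4 weeks after grafting the recipients received 300 µg of the interferon inducer pIpC intraperitoneally on days 0 and 2, and cells were sorted on day 4. The protocol text is shared by both genotypes, and by that text the WT recipients received pIpC too. Mx-Cre acts in interferon-responsive cells and is not restricted to stem cells, and no source used here gives the age of the animals. The sort took lineage-negative EPCR+ CD150+ CD48- cells, a gate called L-ESLAM, and the labels name no CD45.1 or CD45.2 gate for these libraries, so any host stem cells left after irradiation were not shown to be gated out. The series' design text gives 2 mice per genotype, and the p-values below measure the spread between these 4 libraries.

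Long-lived stem cells make up a very small part of the marrow and are isolated by combinations of surface proteins, none of which is found on stem cells alone. Procr encodes EPCR, the endothelial receptor of protein C, and Slamf1 encodes CD150; both are displayed on long-term stem cells, whereas CD48, another protein of the SLAM family, is displayed on most other blood cells and serves for negative selection. Ly6a encodes Sca-1, a GPI-anchored protein that interferon is known to induce. Cd34 and Esam encode adhesion molecules and Eng a TGF-beta co-receptor (endoglin), Tek encodes the angiopoietin receptor Tie2, Cd9 a tetraspanin, and Vwf the clotting protein von Willebrand factor, which is stored in the granules of megakaryocytes, platelets and endothelium and marks platelet-biased stem cells. Several of these proteins are shared by endothelium and blood stem cells.

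The libraries held 6085367 to 6818535 estimated fragments, and between 14785 and 14874 genes had a value above 0. Pearson's r of log2 values was 0.982 within each genotype and lay between 0.956 and 0.959 across genotypes. Dis3 itself read 55.9 and 53.2 CPM (counts-per-million, on library sizes scaled by TMM) in WT libraries 1 and 2 and 23.6 and 30.2 CPM in Dis3-/- libraries 1 and 2, a log2 fold change of -1.02 ± 0.14 (SE, n = 2 per genotype, edgeR quasi-likelihood test, Benjamini-Hochberg adjusted p = 2.58e-04). The gene totals do not separate deleted from remaining exons of Dis3, and Dis3 overlaps another gene, Pibf1. Of 12244 genes that passed the filter on low counts, 2811 (23.0%) differed at an adjusted p below 0.05, 1561 higher and 1250 lower in Dis3-/-. On log2(TPM + 1), which scales each library to its total, the split was 1076 higher and 1480 lower.

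TPM (transcripts-per-million) is a scale per length on which different genes can be set side by side. In TPM, Ly6a and Cd34 were the most abundant of the 10 and Slamf1 was the least abundant on average. Ly6a stood at 437 and 309 TPM in WT and at 497 and 439 TPM in Dis3-/-, with a rank among tested genes between percentiles 97.5 and 98.4. Cd34 followed at 345 and 351 TPM in WT and 263 and 229 TPM in Dis3-/-. In WT the Ly6a and Cd34 levels overlapped, whereas in Dis3-/- both Ly6a libraries lay above both Cd34 libraries. Eng came next with a mean of 196 TPM in WT and 146 TPM in Dis3-/-, then Esam with 104 and 95.9 TPM. Procr and Cd9 were neighbours whose WT levels overlapped, at means of 71.8 and 69.1 TPM; in Dis3-/- the means were 68.6 TPM for Procr and 78.1 TPM for Cd9, and the libraries no longer overlapped. Cd48, Vwf and Tek formed a lower group, with WT means of 48.7, 37.3 and 32.0 TPM and overlapping neighbours. Slamf1 was lowest on average, at a mean of 22.7 TPM in WT and 19.7 TPM in Dis3-/-, and in Dis3-/- it overlapped with Tek. In WT it overlapped with Vwf, which was the lower of the pair in WT 1 (26.3 against 28.2 TPM). These orders describe 2 libraries per genotype and were not tested.

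**Figure D1:**
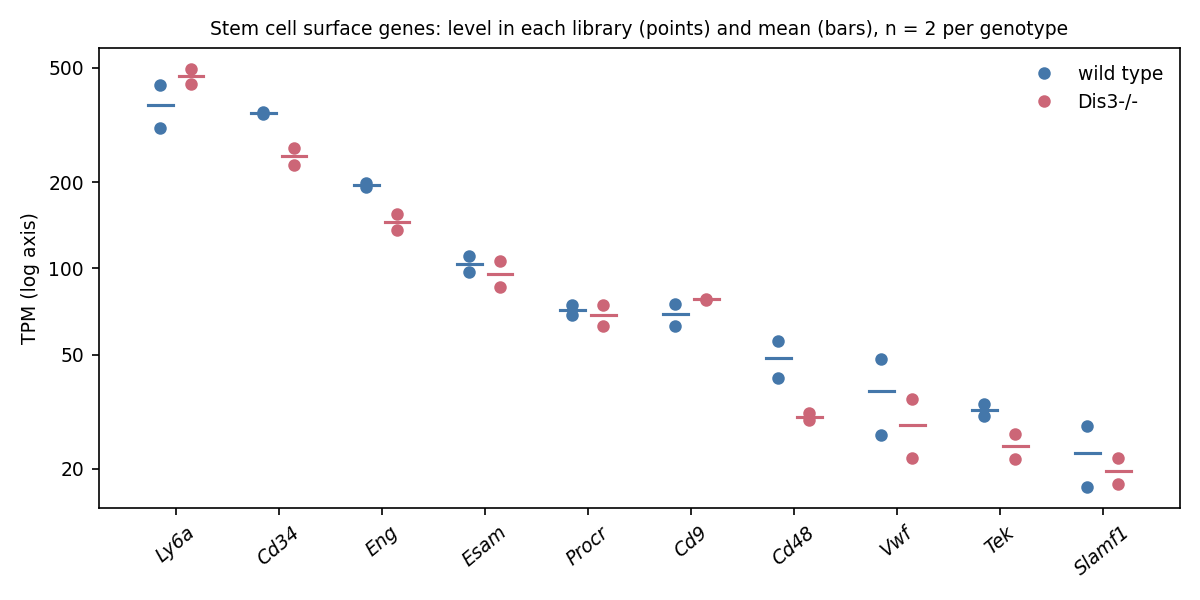
Level of each of the 10 genes in every library, in TPM on a log axis, with WT and Dis3-/- libraries as separate points. Ly6a and Cd34 lie highest in all 4 libraries and Slamf1 lowest on average (22.7 TPM in WT, 19.7 TPM in Dis3-/-).

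All 10 genes passed the filter. Ly6a rose in Dis3-/-, Cd34 and Eng fell, and the other 7 did not pass the test. Thus 3 of 10 were called, against 23.0% of all tested genes, 1 of them higher (12.7% of all tested genes were called higher) and 2 lower (10.2% were called lower), so the count does not set these genes apart. In 6 of the 10 the WT and Dis3-/- libraries did not overlap in CPM, with Ly6a and Cd9 above WT and Cd34, Eng, Cd48 and Tek below it; over all tested genes 62.4% did not overlap, 31.9% with Dis3-/- above and 30.5% with it below. The median log2 fold change over the 10 was -0.19, and over all tested genes -0.0027. In bulk RNA of sorted cells, fewer cells that carry a transcript and less of it per cell cannot be told apart.

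**Figure D2:**
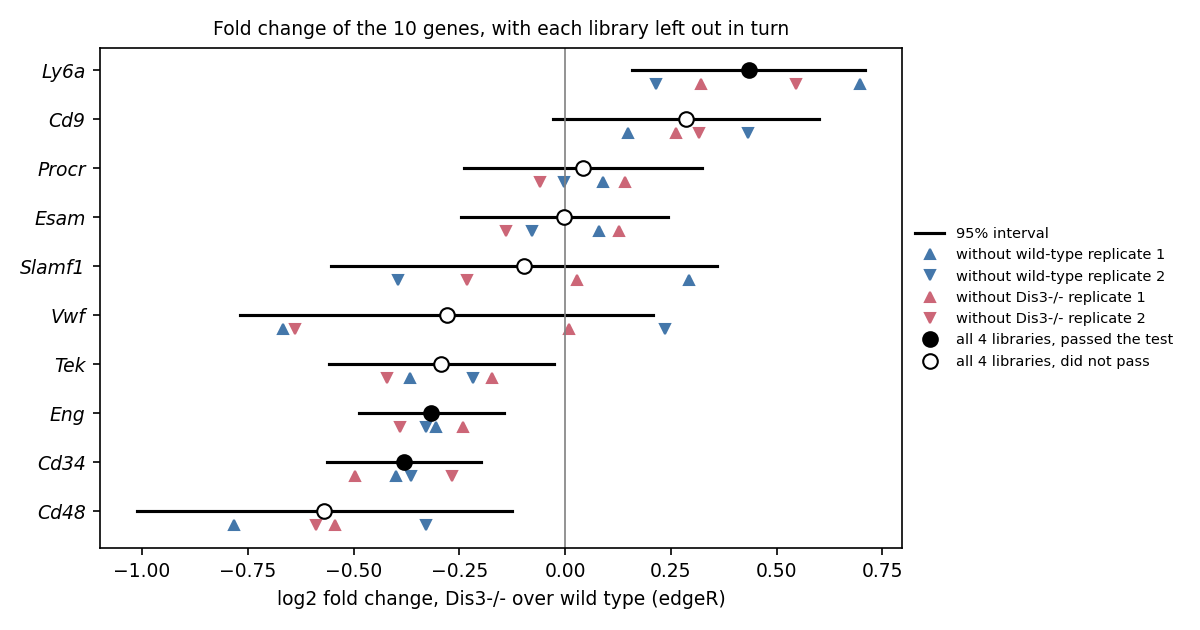
Log2 fold change (Dis3-/- over WT) of each of the 10 genes, with circles for the edgeR estimate from all 4 libraries (filled where it passed the test), lines for its 95% confidence interval and triangles for the estimate with 1 library left out. Cd34 and Eng lie below 0 and Ly6a above 0 with adjusted p below 0.05; the intervals of Procr, Slamf1, Esam, Cd9 and Vwf include 0, and those of Cd48 and Tek lie below 0 without passing the adjusted threshold.

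The genes of the proteins used for the sort gave no call. Procr (chr2:155751125-155755478, GRCm38.p6, plus strand) read 43.1 and 40.5 CPM in WT and 40.1 and 46.0 CPM in Dis3-/-. The genotypes overlapped, and the log2 fold change was 0.04 ± 0.13 (SE), with a 95% interval for the fold from 0.848 to 1.25 (edgeR, adjusted p = 0.853). Slamf1 (chr1:171767131-171801184, plus strand) read 30.4 and 18.9 CPM in WT and 21.0 and 25.2 CPM in Dis3-/-, with both Dis3-/- values inside the WT range. Its log2 fold change was -0.10 ± 0.21, and the interval for the fold, 0.682 to 1.28, was wide, and the WT libraries differed from each other by 0.67 on the log2 scale; without WT 1 the value was 0.29 and without WT 2 it was -0.40. Since cells were selected for EPCR and CD150 protein in both genotypes, these values describe transcripts in cells that had passed the gate.

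Cd48 (chr1:171681245-171705258, plus strand) read 17.6 and 24.1 CPM in WT and 13.8 and 14.2 CPM in Dis3-/-. Both Dis3-/- libraries lay below both WT libraries, at a log2 fold change of -0.57 ± 0.21 (95% interval -1.01 to -0.12) that missed the adjusted threshold (edgeR, unadjusted p = 0.0158, adjusted p = 0.0627). It passed without WT 1 (-0.78, adjusted p = 0.0208), with no filter on low counts (adjusted p = 0.0312) and on log2(TPM + 1) (-0.65, limma, adjusted p = 0.0253); without WT 2 the value was -0.33. The cells had been sorted as CD48-, yet in TPM the Cd48 transcript exceeded that of Slamf1, whose protein was selected for, in all 4 libraries: the ratio of Cd48 to Slamf1 was 1.47 and 3.25 in WT and 1.67 and 1.44 in Dis3-/-. Cd48 and Slamf1 lie 61.9 kb apart in a run of SLAM genes on chromosome 1.

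Of the other SLAM genes, which encode receptors through which blood cells bind each other, 4 passed the filter and 2 of these fell, Cd84 and Cd244 (10.2% of all tested genes fell); their neighbours are not independent genes in position, since Cd244, Ly9, Cd48, Slamf1 and Cd84 are all in that run. Cd84 read 86.2 and 77.7 CPM in WT and 61.3 and 58.8 CPM in Dis3-/-, a log2 fold change of -0.45 ± 0.11 (edgeR, adjusted p = 7.82e-03). Cd244 changed by -0.47 ± 0.15 (adjusted p = 0.0389). Ly9 (0.02) and Slamf8 (0.32, at 2.3 to 3.9 CPM) were not called, and the median of the 4 was -0.21. The Cd84 call ended without WT 1 (adjusted p = 0.0679), and that of Cd244 without WT 1 (0.0563), WT 2 (0.157) or Dis3-/- 2 (0.216) by edgeR, and in DESeq2 (0.162).

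Ly6a, the gene of Sca-1, was the only gene of the 10 called higher in Dis3-/-. It lies at chr15:74994877-74998031 on the minus strand. The WT libraries read 152 and 109 CPM and the Dis3-/- libraries 190 and 163 CPM. Both Dis3-/- libraries lay above both WT libraries, but the step from WT 1 to Dis3-/- 2 was small beside the gap between the WT libraries. The log2 fold change was 0.43 ± 0.13 (fold 1.35, 95% interval of the log2 value 0.16 to 0.71, edgeR, adjusted p = 0.0255). This call rested on WT 2: without that library the value was 0.21 (adjusted p = 0.200), and without WT 1 it was 0.70. It was also lost in DESeq2 (0.43, adjusted p = 0.297), with robust dispersions (adjusted p = 0.131) and on log2(TPM + 1) (0.35, limma, adjusted p = 0.131). Estimated counts of Ly6a, like those of Cd34, were not whole in any of the 4 libraries, so some reads were shared out between genes and the level is uncertain to that extent.

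Another gene of the family, Ly6e, lies near Ly6a at chr15:74955025-74959904 and also rose. Ly6e encodes another GPI-anchored Ly6 protein that interferon induces. It read 347 and 306 CPM in WT and 474 and 462 CPM in Dis3-/-, a log2 fold change of 0.52 ± 0.08 (edgeR, adjusted p = 3.66e-04). Plaur, the urokinase receptor of the same protein family, fell by 0.72 on the log2 scale (adjusted p = 0.0291), with 66.8 and 55.6 CPM in WT and 49.7 and 25.0 CPM in Dis3-/-; the call ended without WT 1 (-0.58, adjusted p = 0.0785) and without Dis3-/- 2 (-0.30, adjusted p = 0.187), and without Dis3-/- 1 the value was -1.29. Ly6c1 (-1.54, at 0.6 to 2.9 CPM) and Cd59a (0.39) were not called. The family apart from Ly6a thus held 1 gene called higher and 1 called lower among 4 tested, with a median of -0.16; of all tested genes 12.7% were called higher and 10.2% lower. Ly6c2, Ly6d, Ly6f, Ly6h and Ly6k read 0 in all libraries, where 3 counts correspond to 0.432 to 0.505 CPM.

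Because the shared protocol text gives an interferon inducer for the recipients, Ly6a was set beside 35 genes known to be induced by interferon. Of these, 7 rose (20%, against 12.7% of all tested genes) and 4 fell (11.4%, against 10.2%), with a median of 0.11. Cxcl10, a chemokine, read 4.8 and 5.7 CPM in WT and 19.2 and 33.6 CPM in Dis3-/- (log2 fold change 2.34 ± 0.28, edgeR, adjusted p = 8.1e-05). Usp18, a negative regulator of interferon signalling, rose by 0.84 and Bst2, a membrane protein that tethers viruses, by 0.61 on the log2 scale. Stat2, a transcription factor of the interferon response, fell by 0.65. The summed level of the 35 genes was 2347 and 1958 CPM in WT and 2154 and 2193 CPM in Dis3-/-, so the genotypes overlapped. WT 2, the library with the lowest Ly6a, also had the lowest sum. WT 1 had the highest sum, yet its Ly6a lay below that of both Dis3-/- libraries. The part of the interferon response in the Ly6a difference was not tested. Calls on this list, both higher and lower, changed with the library left out. Its balance of rises and falls therefore rested on single libraries. Bst2 was at 0.40 without WT 2, and Stat2 was at -0.45 without WT 1 (edgeR).

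**Figure D3:**
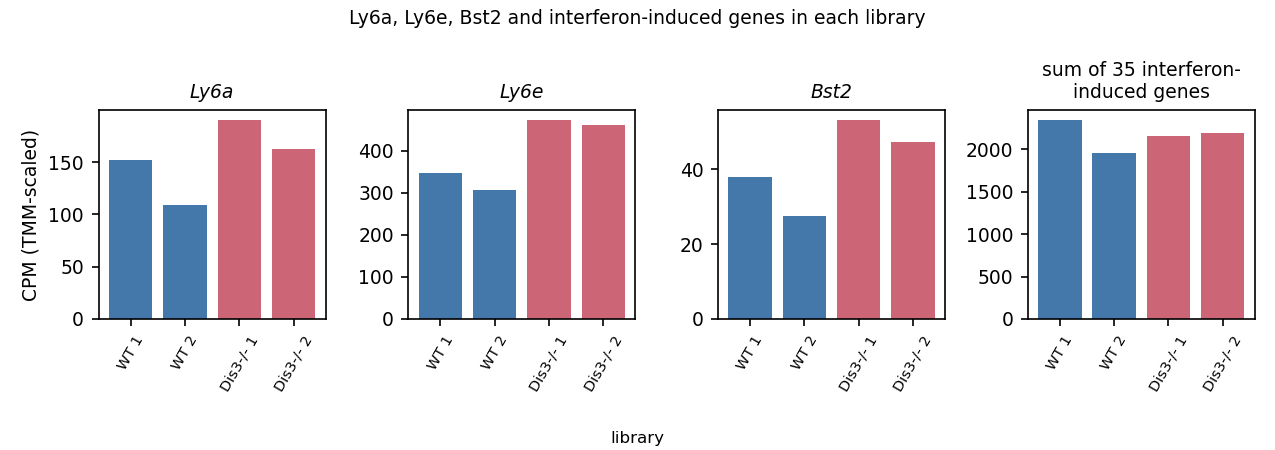
Levels in CPM on TMM-scaled library sizes of Ly6a, Ly6e and Bst2 and the summed level of 35 interferon-induced genes, 1 bar per library, WT in blue and Dis3-/- in red. Each of the 3 single genes is higher in both Dis3-/- libraries than in both WT libraries, while the sum overlaps (2347 and 1958 CPM in WT, 2154 and 2193 CPM in Dis3-/-). Of the 35 genes, 7 were called higher and 4 lower (12.7% and 10.2% of all tested genes were). Stat2, 1 of those called lower, is not shown.

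Cd34 gave the firmest difference of the 10. Its product is a sialomucin, a heavily glycosylated membrane protein that is low on long-term stem cells of adult mice and higher on short-lived progenitors. The gene lies at chr1:194938821-194961292 on the plus strand. WT libraries read 345 and 354 CPM and Dis3-/- libraries 290 and 247 CPM. The genotypes did not overlap, and the gap was larger than the spread within either. The log2 fold change was -0.38 ± 0.08 (fold 0.768, 95% interval of the log2 value -0.56 to -0.20, edgeR, adjusted p = 5.28e-03), and it stayed below 0 and past the threshold in all 15 alternative settings, between -0.50 and -0.27. A non-coding gene on the opposite strand, Gm16897, overlaps Cd34 and had 94.65 and 79.52 estimated counts in WT and 55.47 and 56.35 in Dis3-/-, beside 1580 to 2392 for Cd34; no source used here says whether counting used strand, and reads of the pair cannot then be told apart.

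Among 6 other tested genes of sialomucins and related glycoproteins, Selplg, the ligand of P-selectin, fell by 0.32 on the log2 scale (edgeR, adjusted p = 0.0382), and none rose with all 4 libraries (10.2% of all tested genes fell and 12.7% rose). Its call ended without WT 1 (-0.19, adjusted p = 0.341) and without Dis3-/- 1 (-0.26, adjusted p = 0.115, edgeR). Podxl (0.35), an anti-adhesive relative of Cd34, was not called with all 4 libraries, but passed without WT 1 (0.75, adjusted p = 0.0159) and without Dis3-/- 1 (0.64, adjusted p = 3.17e-03), and was at 0.037 without WT 2 and -0.019 without Dis3-/- 2 (edgeR). Cd24a (-0.17) and Emcn (-0.24) were not called, and the median of the 6 was -0.13.

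Eng was the other gene called lower. Endoglin binds TGF-beta family ligands together with the signalling receptors. The gene lies at chr2:32646595-32682669 on the plus strand. It read 278 and 275 CPM in WT and 211 and 233 CPM in Dis3-/-. The WT values were nearly equal and both Dis3-/- values lay below them, at a log2 fold change of -0.32 ± 0.08 (fold 0.803, 95% interval of the log2 value -0.49 to -0.15, edgeR, adjusted p = 0.0113). The call was lost by a small margin without WT 1 (-0.31, adjusted p = 0.0532) and without Dis3-/- 1 (-0.24, adjusted p = 0.0690). Fpgs, on the opposite strand, overlaps Eng and had 196 and 199 estimated counts in WT and 204 and 216 in Dis3-/-, beside 1251 to 1932 for Eng.

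The receptors and ligands of the TGF-beta family gave 2 calls among 10 other tested genes, both lower (of all tested genes 23.0% were called and 10.2% called lower). Tgfbr2, the type II TGF-beta receptor, read 145 and 164 CPM in WT and 96.4 and 90.5 CPM in Dis3-/-, a log2 fold change of -0.72 ± 0.09 (edgeR, adjusted p = 1.13e-04). Bmpr2, the type II BMP receptor, fell by 0.37 (adjusted p = 3.15e-03). The ligand gene Tgfb1 was at 0.24 (adjusted p = 0.0761) and the activin receptor gene Acvr2a at -0.34 (adjusted p = 0.121). Tgfb1 passed without Dis3-/- 2 (0.37, adjusted p = 0.0165) and was at 0.12 without Dis3-/- 1, and Acvr2a passed without WT 2 (-0.51, adjusted p = 0.0305) and was at -0.13 without WT 1 (edgeR). Both the tested genes of this list and its calls changed with the library left out. The median of the 10 was -0.16.

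Tek, the gene of the receptor Tie2, through which angiopoietin signals to stem cells and endothelium, lies at chr4:94739086-94874976 on the plus strand. It read 58.6 and 65.1 CPM in WT and 46.1 and 54.7 CPM in Dis3-/-. Both Dis3-/- libraries lay below both WT libraries, but the log2 fold change of -0.29 ± 0.12 (95% interval -0.56 to -0.03) did not pass after adjustment (edgeR, unadjusted p = 0.0332, adjusted p = 0.105), nor in any of the 15 alternative settings. None of 5 other tested genes of angiopoietin signalling was called, where 23.0% of all tested genes were. The 4 named by their p were Svep1 (-1.70, at 0.3 to 1.9 CPM), Dok2 (0.19), Tie1 (-0.08) and Angpt2 (0.15). Tie1, the sister receptor of Tie2, read 217 and 225 CPM in WT and 200.3 and 218 CPM in Dis3-/-, with overlapping genotypes. The ligand gene Angpt1 was itself expressed in these cells, at 427 and 449 CPM in WT and 434 and 425 CPM in Dis3-/-; it was named after its values were seen. The median of the 5 was -0.03.

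The upstream sequences of the 4 genes whose Dis3-/- libraries both lay below WT are shown, Cd34 and Eng (called) first and Cd48 and Tek (not called) after them, since these 4 lay on the same side. Each is the 250 bases before the transcription start in the RefSeq promoter table (GRCm38.p6, plus strand, 5′ to 3′): chr1:194938571-194938820 for Cd34, chr2:32646345-32646594 for Eng, chr1:171681742-171681991 for Cd48 and chr4:94739039-94739288 for Tek. The starts used by the table for Cd48 and Tek lie inside the annotated spans of those genes. Capitals would mark a motif match, and these stretches hold none.
Cd34: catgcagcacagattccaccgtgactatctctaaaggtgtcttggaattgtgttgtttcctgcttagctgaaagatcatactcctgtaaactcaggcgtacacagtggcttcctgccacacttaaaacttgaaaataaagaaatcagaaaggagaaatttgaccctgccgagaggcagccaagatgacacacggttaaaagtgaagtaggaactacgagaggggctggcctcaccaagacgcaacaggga
Eng: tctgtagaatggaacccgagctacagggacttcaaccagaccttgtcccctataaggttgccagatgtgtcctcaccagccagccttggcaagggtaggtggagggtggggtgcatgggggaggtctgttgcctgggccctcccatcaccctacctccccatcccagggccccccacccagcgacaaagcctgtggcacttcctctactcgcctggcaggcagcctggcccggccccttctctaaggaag
Cd48: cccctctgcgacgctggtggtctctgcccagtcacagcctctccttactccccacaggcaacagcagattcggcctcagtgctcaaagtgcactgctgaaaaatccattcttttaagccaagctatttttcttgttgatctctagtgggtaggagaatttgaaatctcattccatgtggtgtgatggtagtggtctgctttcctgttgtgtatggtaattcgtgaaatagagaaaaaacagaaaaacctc
Tek: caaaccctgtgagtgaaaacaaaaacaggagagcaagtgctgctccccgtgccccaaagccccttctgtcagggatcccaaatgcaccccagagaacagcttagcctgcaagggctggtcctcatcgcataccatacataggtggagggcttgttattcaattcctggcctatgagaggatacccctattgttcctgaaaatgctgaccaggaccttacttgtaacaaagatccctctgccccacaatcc

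The 5 motifs below were searched on both strands of the 300-base windows, which reach from 250 bases before to 50 bases after each start, in the 7 of the 10 genes with an entry in the table (Ly6a, Esam and Vwf had none). The GATA core AGATAA was in 11.2% of all 32851 windows and, among the 10 genes, in that of Tek. The ETS core with flank, CCGGAAG, was in 8.86% of windows and, read on the other strand, in that of Cd48. The E-box CAGCTG, which equals its own reverse complement, was in 16.3% of windows and in those of Slamf1, Procr and Cd9. The interferon-stimulated response element (GAAA, any 2 bases, GAAA) was in 3.44% of windows and the gamma-activated site (TTC, any 3 bases, GAA) in 8.30%, with none of the 7. The windows of Cd34 and Eng held none of the 5. The matches of Tek and Cd48 lie after the start, and are shown in their 30 bases with the match in capitals, at chr4:94739309-94739338 and chr1:171681987-171682016.
Tek: ccggagcaggagcagaAGATAAgccttgga
Cd48: acctcatacgaCTTCCGGttttgggttttg
A match describes these letters only and says nothing of binding.

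Esam, whose product is an adhesion molecule of endothelial tight junctions that stem cells share, lies at chr9:37528089-37538319 on the plus strand. It read 79.8 and 71.6 CPM in WT and 68.7 and 82.6 CPM in Dis3-/-. The Dis3-/- libraries fell on either side of the WT libraries, and the log2 fold change was -0.0016 ± 0.11, with a 95% interval for the fold from 0.843 to 1.18 (edgeR, adjusted p = 0.995). Among 6 other tested genes of junctional and related adhesion molecules, 2 fell and none rose, where of all tested genes 10.2% fell and 12.7% rose. Pecam1, a homophilic adhesion molecule of endothelium and blood cells, read 110 and 112 CPM in WT and 74.7 and 65.0 CPM in Dis3-/- (log2 fold change -0.67 ± 0.10, edgeR, adjusted p = 3.78e-04). Cd99l2, a protein involved in the passage of leukocytes through vessel walls, fell by 0.63 (adjusted p = 7.56e-03). Jam3 (-0.57, adjusted p = 0.0590) and F11r (-0.23) were not called, and the median of the 6 was -0.60.

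Cd9 (chr6:125460266-125494760, minus strand) encodes a tetraspanin, a membrane protein that organises other proteins around it and is found on stem cells and platelets. It read 27.9 and 34.1 CPM in WT and 38.5 and 37.1 CPM in Dis3-/-. Both Dis3-/- libraries lay above WT, at a log2 fold change of 0.29 ± 0.15 (95% interval -0.03 to 0.60, edgeR, adjusted p = 0.180), and no setting brought it past the threshold. Of 19 other tested tetraspanin genes 3 fell (15.8%, against 10.2% of all tested genes) and none rose: Cd37, a tetraspanin of lymphocytes, by 0.64, Tspan13 by 0.29 and Tspan32 by 0.27 on the log2 scale (edgeR, adjusted p = 1.77e-03, 0.0184 and 0.0287). Cd81, close in family to Cd9, read 172 and 171 CPM in WT and 201 and 199 CPM in Dis3-/- (0.22, adjusted p = 0.0561). The median of the 19 was -0.06. Leaving out WT 1 ended the calls of Tspan13 (adjusted p = 0.0679) and Tspan32 (0.177), and leaving out WT 2 that of Tspan13 (0.0597); without Dis3-/- 1 they were at 0.0634 and 0.0605, and without Dis3-/- 2 Tspan32 was at 0.0847 (edgeR).

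Vwf differed more between libraries of 1 genotype than between genotypes. It lies on chromosome 6 at chr6:125552948-125686679 on the plus strand, 58.2 kb from Cd9. It read 96.7 and 181 CPM in WT and 88.7 and 139 CPM in Dis3-/-. The libraries of WT differed by 0.90 and those of Dis3-/- by 0.64 on the log2 scale, against a median of 0.15 over all tested genes in each genotype, and WT 2 and Dis3-/- 2 were the high ones. The log2 fold change was -0.28 ± 0.23, with a 95% interval for the fold from 0.587 to 1.15 (edgeR, adjusted p = 0.410). The SE was 0.53 with robust dispersions and 0.54 in DESeq2, so the printed interval is narrow beside those fits. Which library was left out set its direction and call: -0.67 without WT 1 (adjusted p = 3.4e-03), 0.24 without WT 2 (0.335), 0.0082 without Dis3-/- 1 (0.979) and -0.64 without Dis3-/- 2 (0.0480), all by edgeR. With 2 libraries per genotype the level of Vwf was not fixed well enough to show a difference of the size measured.

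Genes of proteins that join or receive von Willebrand factor gave 2 calls among 8 others tested (25.0%), both lower; of all tested genes 23.0% were called and 10.2% called lower. Mmrn1, a protein stored with it in granules, read 97.4 and 102 CPM in WT and 34.8 and 49.7 CPM in Dis3-/-, a log2 fold change of -1.23 ± 0.14 (edgeR, adjusted p = 4.64e-05). Its libraries did not overlap between genotypes, whereas those of Vwf did; whether the changes of Mmrn1 and Vwf differ was not tested. Gp5, a platelet glycoprotein at 1.7 to 6.5 CPM, fell by 1.34 (adjusted p = 0.0465), a call that ended when any library was left out (adjusted p = 0.0612 without WT 1, 0.303 without WT 2, 0.0703 without Dis3-/- 1 and 0.224 without Dis3-/- 2, edgeR). Itga2b, the platelet integrin chain CD41, read 45.2 and 63.0 CPM in WT and 48.3 and 24.2 CPM in Dis3-/- (-0.58, adjusted p = 0.0936). It passed without WT 1 (-0.80, adjusted p = 0.0126) and without Dis3-/- 1 (-1.15, adjusted p = 1.96e-07), and was at -0.33 without WT 2 and -0.16 without Dis3-/- 2 (edgeR). Gp9 was at -0.71 (adjusted p = 0.157). The median of the 8 was -0.59.

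Procr was not called, and of 8 other tested genes of the protein C and thrombin system 4 fell (10.2% of all tested genes did) and none rose. Here too the tested genes and the calls, higher and lower, changed with the library left out. S1pr1, the sphingosine-1-phosphate receptor that acts with EPCR signalling in endothelium, read 87.4 and 80.2 CPM in WT and 56.6 and 34.2 CPM in Dis3-/- (log2 fold change -0.89 ± 0.17, edgeR, adjusted p = 2.12e-03), and without Dis3-/- 2 its value was -0.57. The thrombin receptor F2r fell by 0.43, its relative F2rl2 by 0.85 and Thbd, thrombomodulin, by 0.56 on the log2 scale (edgeR, adjusted p = 0.0134, 0.0154 and 0.0262). Proc, the gene of protein C, read 0 in every library. The median of the 8 was -0.50. The F2r call ended without Dis3-/- 2 (-0.24, adjusted p = 0.110), that of F2rl2 without Dis3-/- 1 (adjusted p = 0.0999), and that of Thbd without WT 1 (0.123) and without Dis3-/- 2 (0.117), all by edgeR.

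**Figure D4:**
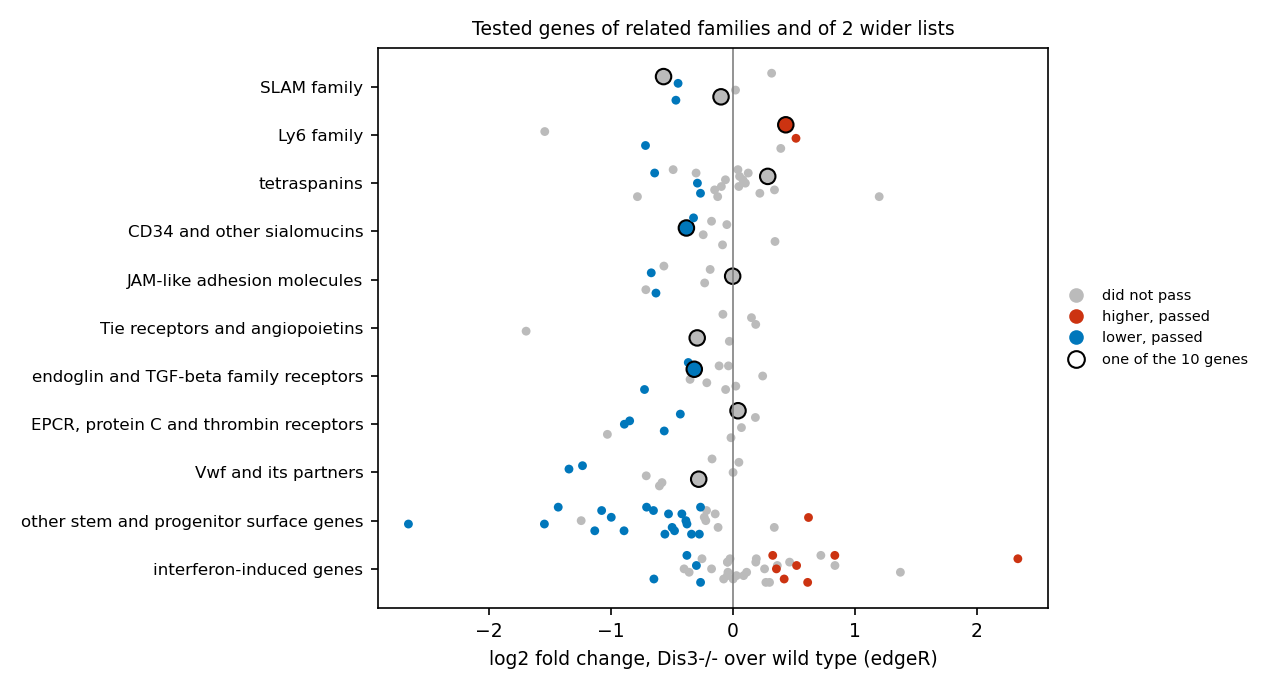
Log2 fold changes (Dis3-/- over WT) of the tested genes in each family or list related to the 10 genes, 1 point per gene, blue where called lower, red where called higher and grey otherwise, with larger outlined points for the 10 genes. The list of other stem and progenitor surface genes lies mostly below 0 (median -0.48), while the median of all tested genes is -0.0027.

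Other surface proteins of stem and progenitor cells were mostly lower. The tables hold 34 such genes, of which 27 passed the filter, and 19 of the 27 fell (70.4%, against 10.2% of all tested genes), 1 rose and 7 were not called, with a median of -0.48. Kit, the stem cell factor receptor, read 1078 and 1003 CPM in WT and 716 and 699 CPM in Dis3-/-, a log2 fold change of -0.56 ± 0.06 (edgeR, adjusted p = 4.47e-05). Robo4, a guidance receptor of stem cells and endothelium, fell by 1.13 and Flt3, a cytokine receptor of multipotent progenitors, by 0.89 on the log2 scale. The gene that rose, Bst2, is also on the interferon list, and without WT 2 none rose, while without WT 1 there were 2. On log2(TPM + 1) without a filter 10 were called lower, where 2.86% of all tested genes were called lower. The number called lower also changed with the library left out. Beside these changes, the 3 genes called among the 10 moved by at most 0.43 in size on the log2 scale. Cd48, which was not called, was at -0.57, and the median of all 10 was -0.19. This list was chosen with earlier results of these data known and is a description, not a separate test.

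Markers of the cell types that the gate could hold were measured beside these results, and their part in the results was not tested. The 9 markers of stem cells, of which Procr, Slamf1, Ly6a and Esam are among the 10 genes themselves, were all detected, and summed to 3215 and 2845 CPM in WT and 2287 and 2256 CPM in Dis3-/-. Among those called lower were Kit, Hlf (-0.46, edgeR, adjusted p = 4.57e-03), a transcription factor of stem cells, and Fgd5 (-0.35, adjusted p = 0.0131), an exchange factor used as a stem cell reporter; Hlf was at -0.24 without WT 1 (adjusted p = 0.0620) and lost its call in DESeq2 (-0.46, adjusted p = 0.115) and with robust dispersions (adjusted p = 0.104), and without WT 2 Fgd5 was at -0.28 (adjusted p = 0.105). Mecom, a transcription factor of stem cells, was at 0.03.

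Endothelial markers bear on Eng, Tek, Esam, Cd34, Procr and Vwf, which endothelium also expresses. Of 8 such markers 5 passed the filter and none was called, where 23.0% of all tested genes were. The 8 markers summed to 23.5 and 29.9 CPM in WT and 21.5 and 22.7 CPM in Dis3-/-. Cdh5, the defining cadherin of endothelium, had 0 to 2 estimated counts per library. At an unadjusted p below 0.05 there was 1 such gene, Kdr (-1.07, at 1.9 to 4.9 CPM, edgeR, adjusted p = 0.124), and Emcn (-0.24), Stab2 (-0.83) and Sox18 (0.83) were not called. Megakaryocyte markers, which bear on Vwf and Cd9, summed to 75.3 and 98.3 CPM in WT and 81.6 and 45.5 CPM in Dis3-/-. Of these markers Gp5 was called lower among 5 tested (10.2% of all tested genes were), and Pf4 was at 0.30. WT 2, the highest of the 4 libraries in Vwf, was also the highest in this sum, and Dis3-/- 2, the next in Vwf, was the lowest.

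Of the other lists, the summed levels of B cell, granulocyte, monocyte and stromal markers were lower in both Dis3-/- libraries than in both WT libraries, that of erythroid markers was higher in both, and that of T and NK cell markers overlapped. B cell markers summed to 12.3 to 16.2 CPM, nearly all of it Cd79b (-0.37), and Ms4a1 and Ebf1 read 0 in every library. T and NK cell markers summed to 61.8 to 86.7 CPM, most of it Nkg7 (0.0041), with Cd4 at 0.2 to 1.7 CPM (-0.59) and Cd3e, Cd3g and Klrd1 at 0. Granulocyte markers summed to 35.6 and 30.6 CPM in WT and 24.4 and 21.7 CPM in Dis3-/-; Prtn3, a protease of immature granulocytes, fell by 0.67 on the log2 scale (edgeR, adjusted p = 0.0141), S100a9 was at 0.91 and Ctsg at 0. The Prtn3 call ended without WT 1 (-0.49, adjusted p = 0.127) and without Dis3-/- 2 (adjusted p = 0.0646), and in DESeq2 (-0.68, adjusted p = 0.0608). Of the monocyte and macrophage markers, Itgam, the integrin chain CD11b, fell by 1.39 (26.8 and 34.0 CPM in WT, 11.3 and 11.9 CPM in Dis3-/-, edgeR, adjusted p = 2.14e-04), while Lyz2 (-0.13) and Cd68 (0.37) were not called; the list summed to 224 and 250 CPM in WT and 212 and 201 CPM in Dis3-/-. Erythroid markers summed to 30.4 to 47.0 CPM, with Hba-a2 and Hbb-bs at 0, Hbb-bt at 0.38 and Epor at -0.13; Hbb-bt was at 0.13 without Dis3-/- 1 and passed without Dis3-/- 2 (0.61, edgeR, adjusted p = 0.0210). Of the stromal markers only Pdgfrb was tested, at 33.6 and 22.2 CPM in WT and 5.9 and 9.2 CPM in Dis3-/- (-1.88, adjusted p = 2e-04, edgeR), and Col3a1 read 0; the list summed to 35.0 and 22.9 CPM in WT and 6.73 and 10.0 CPM in Dis3-/-.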

How the data were processed

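RNA of 100 sorted cells per library was made into libraries by RamDA-seq, which primes total RNA along whole transcripts, per the labels' protocols. The authors deposited expected counts and TPM per gene from RSEM 1.3.3 after Trim Galore 0.6.6 and STAR 2.7.8a on mm10, per the submitters' processing notes; which annotation and strand setting RSEM had is not stated there. Reads that fit several genes are shared out by RSEM, and the labels name no molecular identifiers. No columns of other samples were present (0).

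Expected counts were rounded, filtered with filterByExpr (minimum count 10, minimum total 15), scaled by TMM and tested over all genes with edgeR 4.0.16 (glmQLFit, glmQLFTest; Benjamini-Hochberg, 0.05), Dis3-/- against WT without a block. The 95% intervals use the standard error and the total degrees of freedom (residual and prior); a floor of 3 counts stands for 0 and covers counting error only. Alternatives used limma 3.58.1, DESeq2 1.42.0 (R 4.3.3) and 15 settings in all. Figures used matplotlib 3.10.9. The edgeR steps were tested on simulated data with the same dispersion for every gene, which did not cover genes whose libraries vary more, such as Vwf. Positions and upstream sequences are from RefSeq, GRCm38.p6, and strands from GENCODE; of 232 listed genes 231 matched by symbol and 1 by an older symbol. Named genes are Dis3, the 10 genes and, from each list, up to 4 others of smallest p, with defining markers at 0 (1 such gene is not reported here); the genes and lists were chosen with earlier results of these data known.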

Additional observations from a re-analysis of the deposited data

How the results depend on the processing

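With 2 libraries per genotype, differences under 0.12 on the log2 scale were not called for any gene, and where 3 libraries were fitted the lone one is assumed to vary like the others. Over 15 alternative settings, Cd34 (-0.50 to -0.27) kept its direction and its call, and Tek (-0.42 to -0.17) and Cd9 (0.15 to 0.43) kept their direction and were never called.

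The number of genes called was 2811, and 1742 in DESeq2 (1000 higher, 742 lower), 950 on log2(TPM + 1) without a filter (479 higher, 471 lower) and 2112 to 2352 (1226 to 1319 higher, 886 to 1060 lower) with 1 library left out. Of the 10 genes, 3 were called, against 23.0% of all tested genes. Without a filter on low counts 5 were called (4 lower), where 19.9% of all tested genes were called and 9.19% called lower. On log2(TPM + 1) without a filter 1 was called (0 higher, 1 lower), where 5.77% of all were called and 2.86% called lower. None was called higher in DESeq2, with robust dispersions or on log2(TPM + 1) or log2(TPM + 0.1), where 8.17% to 13.5% of all were. How many of the 10 were called, higher or lower, also changed with the library left out. The replicate numbers share no mouse or day in the labels, and deviations of same-numbered libraries correlated at -0.03; with the numbers as a replicate block 2614 genes were called (1463 higher, 1151 lower) and 3 of the 10.

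On the TPM scale the median of tested genes moved by -0.10, and values there include this shift. Procr turned sign without WT 2 (-0.0029) and Dis3-/- 2 (-0.0587) and on TPM (-0.0689, and -0.0699 with 0.1 added), between -0.059 and 0.14 with 1 library left out. Slamf1 turned without WT 1 (0.29) and Dis3-/- 1 (0.03; range -0.40 to 0.29), Esam without WT 1 (0.08) and Dis3-/- 1 (0.13; range -0.14 to 0.13), and Vwf without WT 2 (0.24) and Dis3-/- 1 (0.0082; range -0.67 to 0.24). Cd48 was called without a filter (-0.57), without WT 1 (range -0.78 to -0.33) and on filtered TPM (-0.65, -0.66), but not on TPM without a filter (-0.65, adjusted p = 0.0875), and Vwf without a filter (-0.28). Ly6a lost its call in DESeq2 (0.43), with robust dispersions (0.43), without WT 2 (range 0.21 to 0.70) and on TPM (0.35), and Eng without WT 1 or Dis3-/- 1 (range -0.39 to -0.24) and on TPM without a filter (-0.43). The cause was not tested.

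Of the other named genes, Ly9 turned sign with upper-quartile scaling (-0.00014), without WT 2 (-0.068 to 0.12 over the left-out libraries) and on TPM (-0.076, -0.079); Nkg7 with RLE (-0.0017) and upper-quartile scaling (-0.020), in DESeq2 (-0.0027), without WT 1 and without Dis3-/- 1 (-0.22 to 0.26) and on TPM (-0.091, -0.092). With 1 library left out, signs also turned for Podxl (-0.019 to 0.75), Angpt2 (-0.25 to 0.48), Pf4 (-0.26 to 0.72), Cd4 (-2.98 to 0.30), Epor (-0.39 to 0.083) and Sox18 (-0.10 to 3.46).

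Calls of named list genes also ended in DESeq2 for Plaur (adjusted p = 0.380), Gp5 (0.160), Thbd (0.129), Selplg (0.106), Tspan32 (0.0649) and F2rl2 (0.0623), with robust dispersions for Plaur (0.323), on log2(TPM + 0.1) for Plaur (0.0504), with limma-voom for Gp5 (0.0572) and with the replicate block for Gp5 (0.0689) and Selplg (0.0512). On log2(TPM + 1) without a filter, Ly6e, Plaur, Bst2, Usp18, Stat2, Cd244, Selplg, Cd99l2, S1pr1, F2r, F2rl2, Thbd, Gp5, Hlf, Fgd5 and Pdgfrb lost theirs (adjusted p between 0.0505 and 0.167, limma). Itga2b (3.35e-04), Tgfb1 (0.0423) and Jam3 (0.0410) passed without a filter on low counts, Cd81 with limma-voom (0.0496) and robust dispersions (0.0436), and Cd24a, Cd79b, Gp9, Jam3, Ly6c1 and Lyz2 on filtered log2(TPM + 1) (between 0.0186 and 0.0479).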
